A study of Mus musculus with 4 samples.

Results

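Aminoacyl-tRNA synthetases attach each amino acid to its transfer RNA, the step that gives translation its charged substrates. Mammalian cells hold a cytosolic set and a separate mitochondrial set, both encoded in the nucleus, and the genes of the mitochondrial enzymes mostly carry the suffix 2. In the cytosol several synthetases are held together with scaffold proteins in the multi-synthetase complex. The fetal pancreas is a tissue in which this machinery comes to feed a very high output of secreted protein, since acinar cells make digestive enzymes and endocrine cells make hormones.

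The members were the protein-coding genes whose GENCODE M21 symbol is that of an aminoacyl-tRNA synthetase or of the scaffold proteins Aimp1 and Aimp2, 39 of the 54532 gene IDs in the files. By known function 18 act in the cytosol, 17 in mitochondria and 2 (Gars for glycine and Kars for lysine) in both, and 2 are scaffolds. The multi-synthetase complex held 10 of the 39, namely Eprs, Iars, Lars, Mars, Qars, Rars, Dars, Kars, Aimp1 and Aimp2. All 39 reached 1 FPKM in at least 1 stage.

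Total RNA was sequenced from wild-type C57BL/6 fetal pancreas, called pancreatic epithelium in the design text, with 1 sample for each of 4 embryonic stages. The earliest was E11.5 (embryonic day), followed by E13.5 and E15.5, and the latest was E18.5. Levels are scaled FPKM (read fragments normalised to gene length and sequencing depth, then divided by a factor per stage). The length is that of all annotated exons of a gene together, 18102 bases for Eprs and 2447 for Hars. Orders and ratios between genes depend on that length and were not tested with the lengths of the transcripts present. The deposited value of each stage is a mean that could be split into the whole reads of 2 libraries, with an estimated 13674486 to 17962079 reads each. A value after ± is the SD of those libraries (n = 2). No label says whether they came from separate embryos, so every SD and p-value reflects library-to-library spread alone and that spread may be technical. Of the 39 members 33 were split in all 8 libraries and entered the limma test. Hars, Lars and Nars had no split in any stage, Gars and Tars2 none at E13.5 and Qars none at E11.5, and these 6 had no test. A gene was called higher or lower by size when stages were at least 2-fold apart on the log2(FPKM + 1) scale and the higher stage was at 5 FPKM or more, a rule applied to 14838 genes.

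The composition of the samples differed between stages. Summed markers of acinar cells (15 genes) went from 8.22 FPKM at E11.5 to 6522, 116400 and 62650 at the later stages in order. Endocrine markers (12 genes) were summed at 407, 3668, 3147 and 34960 FPKM. The E11.5 sample also held 9 of 9 erythroid markers at a sum of 9764 FPKM, against 265 to 638 at later stages, and 7 neural markers at 1233 FPKM, against 11.8 to 48.6. Mesenchyme markers, 10 of 10 measured, were summed at 234 FPKM at E11.5 and 44.7 to 83.9 afterwards, while 0 of 5 endothelial markers were measured. Pdx1, the pancreatic master regulator, was at 2.93 FPKM at E11.5 and at 60.6 to 79.0 later. In these bulk samples fewer cells of a type and less RNA per cell cannot be told apart, and the part of cell composition in the differences between stages was not tested.

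The synthetases as a group were expressed throughout and moved little. Only Lars2 and Vars spanned 2-fold or more on the log2(FPKM + 1) scale with a highest stage at 5 FPKM or more, which is 5.13% of the 39 members, against 29.9% of all measured genes. On the same scale the range from the lowest to the highest stage was under 1.5-fold for 23 members (59.0%), against 23.9% of all measured genes. The added 1 FPKM narrows the spans of low genes, and members that never reached 5 FPKM could not pass the first count. Among these, Mars2 spanned 2.16-fold and Pars2 2.06-fold by FPKM alone. The median cytosolic enzyme was at 25.8, 28.4, 33.2 and 21.5 FPKM from the earliest stage to the latest. The median mitochondrial enzyme was at 4.22, 5.94, 4.53 and 4.06 FPKM. Together the 39 transcripts made up 0.297% of all FPKM at both early stages, then 0.205% and 0.181%. Their summed level was 914, 1007, 1071 and 837 FPKM from the earliest stage to the latest. The lower share at E15.5 thus went with a higher sum, as total deposited FPKM was 347954 at E13.5 and 536964 at E15.5.

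**Figure D1:**
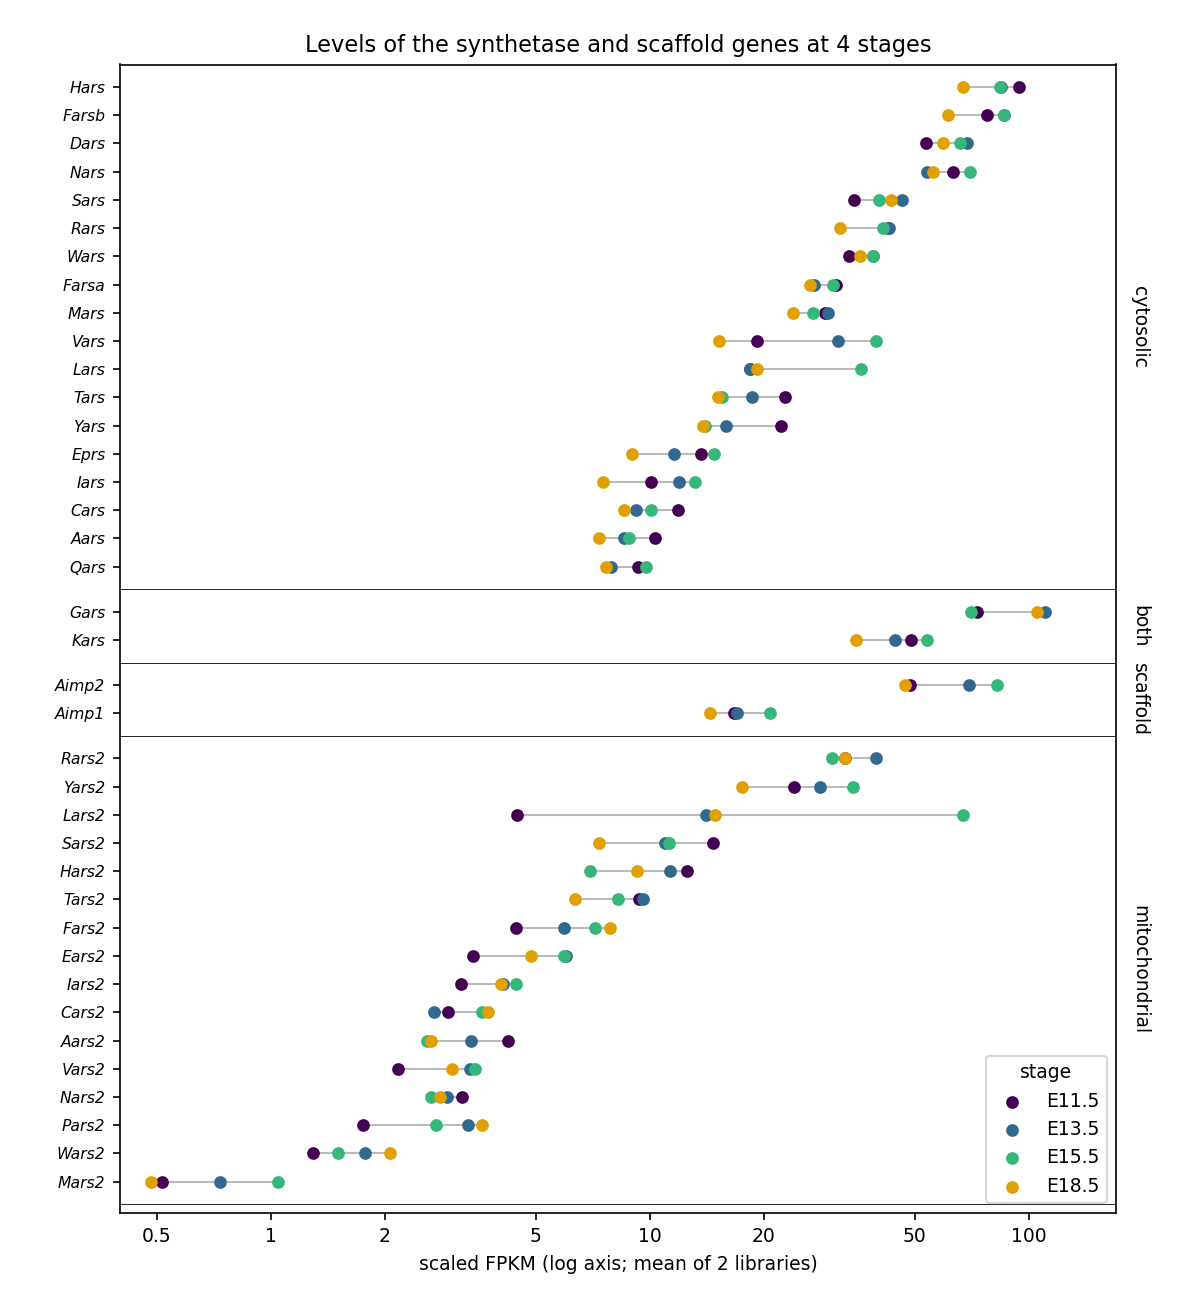
Levels of synthetase and scaffold genes at 4 stages. Each row is a gene, each point is a stage, the x axis is scaled FPKM on a log axis and a grey line spans the stages. The stages of most genes sit close together, and the long line is Lars2, from 4.47 to 67.2 FPKM.

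The highest cytosolic transcripts were those of the enzymes for histidine, phenylalanine, aspartate and asparagine. Hars was at 94.2, 84.7, 83.8 and 67.0 FPKM from E11.5 to E18.5. Farsb, the beta subunit of the phenylalanine enzyme, was at 77.7 ± 0.61, 86.1 ± 1.5, 85.9 ± 2.0 and 61.2 ± 1.4 FPKM. Farsa, the alpha subunit of the same enzyme, was lower than Farsb at every stage, from 26.6 ± 1.5 FPKM at E18.5 to 31.1 ± 0.21 at E11.5. Aars, Cars, Qars and Iars were at low levels for the cytosolic set, between 7.33 and 13.2 FPKM. Dars, for aspartate, was at 53.6 ± 1.3, 68.7 ± 2.4, 65.8 ± 1.3 and 59.6 ± 0.92 FPKM, and Nars, for asparagine and with no test, at 62.9, 53.9, 69.8 and 56.0. Between these extremes lay Rars for arginine (31.8 to 42.9 FPKM), Mars for methionine (23.9 to 29.6 FPKM) and the scaffold Aimp1 (14.5 to 20.8 FPKM). Of the cytosolic enzymes that for tryptophan, Wars, had the smallest span, 1.15-fold, between 33.6 ± 0.27 and 38.9 ± 1.1 FPKM.

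Between E11.5 and E13.5 the cytosolic enzymes split in direction. Of 33 members tested 15 rose, where 31.8% of all genes tested rose, and 9 fell, where 37.2% did. Among 14 cytosolic enzymes 6 rose and 6 fell, and their median log2 difference was −0.08 over all 18, beside −0.03 over all measured genes. The largest rise in the cytosolic set was in the valine enzyme Vars, from 19.2 ± 0.21 to 31.5 ± 2.3 FPKM (log2 difference 0.68 ± 0.05 SE, limma adjusted p = 4.9e-05). The serine enzyme Sars rose from 34.7 ± 1.5 to 46.2 ± 0.41 FPKM (limma adjusted p = 9.4e-05). The tyrosine enzyme Yars fell from 22.2 ± 0.58 to 15.9 ± 0.33 FPKM (limma adjusted p = 2.1e-04). By size 1 of the 39 members was higher, the mitochondrial Lars2, where 5.78% of all genes were, and 0 were lower, where 5.74% were. With every library set to the same total FPKM, 10 members rose and 11 fell, where 27.5% and 44.8% of all genes did, and in the cytosolic set 3 rose and 7 fell.

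Between E13.5 and E15.5, when summed acinar markers were at their highest, the median cytosolic enzyme moved with the median gene on the main scaling. The median log2 difference of the set was 0.02, beside 0.00 over all measured genes. Of the 33 members tested 10 rose and 8 fell, where 29.3% and 27.3% of all genes did, and in the cytosolic set 3 of 14 rose and 3 fell. By size 1 of 39 was higher, again Lars2, where 3.64% of all genes were, and 0 were lower, where 1.48% were. The leucine enzyme Lars, which had no test, was at 18.4 FPKM at both early stages, then at 36.1 and 19.1. Total deposited FPKM differed between these stages, and setting every library to the same total moved the median of all genes to −0.41. On that scaling the cytosolic median was −0.57, 13 of 18 were below the median of all genes, and 14 of 14 tested fell. All genes of a stage share 1 factor there, but the added 1 FPKM weakens its effect in genes at low levels. Places relative to the median of all genes on that scaling thus depend partly on level. Over all members tested 1, Lars2, rose and 30 fell, where 8.78% and 61.3% of all genes did. A called rise at this step other than that of Lars2 therefore holds only relative to the typical gene.

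Between E15.5 and E18.5 most cytosolic enzymes were lower relative to the typical gene, while fewer were below 0 on the same-total scaling. All but 1 of 18, the exception being Sars, were below 0 on the log2 scale, 11 of 14 tested fell, and 0 rose. On the same-total scaling 5 of the 14 fell and 3 rose. Their median log2 difference was −0.27, beside 0.04 over all measured genes. With the same total FPKM 12 of the 18 were below 0. Below the median of all genes were 17 of 18 on either scaling (same-total medians −0.11 for the cytosolic set, 0.15 for all genes). A factor per stage can change that count only through the added 1 FPKM, so it is no separate support. Over all 33 members tested 20 fell, where 31.0% of all genes fell, and 3 rose, where 38.1% did. On the same-total scaling 13 fell and 8 rose, where 23.4% and 44.6% of all genes did. Between the same stages 7 of 15 acinar markers were lower and 4 higher by size, and 12 of 12 endocrine markers were higher, and their part in this step was not tested. By size 0 of 39 members were higher, where 6.29% of all genes were, and 2 were lower, Lars2 and Vars, where 5.55% were. On the main scaling E18.5 was the lowest of the 4 stages for 13 of 18 cytosolic enzymes, against 22% of all measured genes. It was the highest stage for 0 of the 18, against 27.3% of all measured genes. Lowest and highest stages were not counted on the same-total scaling.

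Vars, on chromosome 17 (35000987 to 35016322, plus strand, mm10), had the widest span in the cytosolic set. It was at 19.2 ± 0.21, 31.5 ± 2.3, 39.5 ± 1.3 and 15.2 ± 0.29 FPKM, and the libraries of no 2 stages overlapped. From E15.5 to E18.5 it fell by 1.32 on the log2 scale (SE 0.05, limma adjusted p = 4.0e-06). Vars2, the mitochondrial valine enzyme, was at 3.45 ± 0.20 and 3.0 ± 0.31 FPKM at those stages and was not called (limma adjusted p = 0.12).

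Members of the multi-synthetase complex were lower at the last step. All 8 of its tested members fell from E15.5 to E18.5, where 31.0% of all genes fell, and with the same total FPKM 6 fell and 0 rose, where 23.4% of all genes fell. All 10 were below 0 (8 of 10 with the same total), with a median log2 difference of −0.55. Aimp2, a scaffold protein of the complex, was at 48.6 ± 0.46, 69.8 ± 3.5, 82.6 ± 0.31 and 47.2 ± 1.7 FPKM, so that E11.5 and E18.5 lay together and E15.5 stood highest (E18.5 minus E15.5 −0.79 ± 0.04 SE, limma adjusted p = 1.1e-05). Of the 50-base windows of Aimp2 transcripts 26.7% also lie in other genes, nearly all in Eif2ak1 on the opposite strand, and no source used here says whether counting used strand. Eif2ak1 itself was at 13.4, 7.91, 6.05 and 7.43 FPKM, and the part of its reads in the Aimp2 values was not tested. The isoleucine enzyme Iars was at 10.1 ± 0.03, 11.97 ± 0.33, 13.2 ± 0.12 and 7.53 ± 0.51 FPKM and fell at E18.5 (−0.74 ± 0.05 SE against E15.5, limma adjusted p = 3.0e-05). Eprs, which carries the glutamate and proline activities in 1 chain, went from 14.8 ± 0.23 FPKM at E15.5 to 8.96 ± 0.09 at E18.5 (limma adjusted p = 9.5e-06). Aspartate (Dars) and methionine (Mars) enzymes changed least in the complex at that step, with log2 differences of −0.14 and −0.17. Eef1e1, the further scaffold protein of the complex that the symbol rule left out, fell as well, from 35.2 to 20.1 FPKM (limma adjusted p = 2.2e-05).

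Both enzymes that serve the cytosol and the mitochondria were abundant, and they did not follow each other. Gars was at 73.0 ± 0.26, 110.1, 70.6 ± 0.57 and 105.5 ± 2.3 FPKM, alternately low and high, and it had no test because its E13.5 mean could not be split. The libraries of E18.5 lay above those of E11.5 and E15.5 without overlap. Kars was at 48.8 ± 0.19, 44.4 ± 1.4, 54.0 ± 0.45 and 35.1 ± 0.31 FPKM and fell from E15.5 to E18.5 (−0.61 ± 0.03 SE, limma adjusted p = 1.1e-05).

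**Figure D2:**
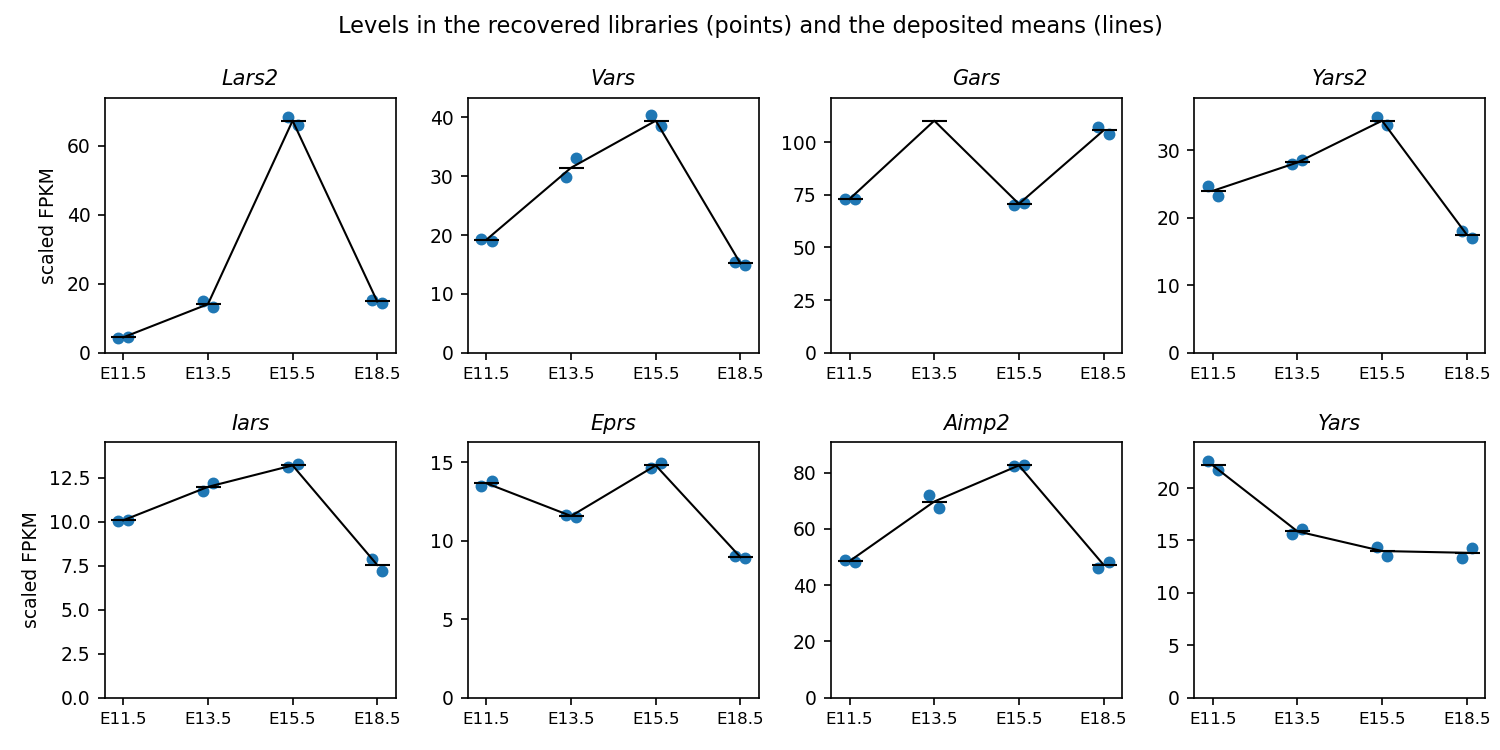
Scaled FPKM of 8 members by stage, with a y axis from 0 in each panel. Blue points are the recovered libraries, black ticks and lines the deposited means. Vars, Iars, Eprs, Aimp2, Yars2 and Lars2 peak at E15.5 and are lower at E18.5, Gars alternates, and Yars is highest at E11.5.

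From E13.5 to E18.5, the comparison that leaves out the E11.5 sample, 21 of 33 members tested fell, where 25.0% of all genes did, and 2 rose, where 36.1% did. With the same total FPKM 30 fell and 0 rose, where 48.5% and 18% of all genes did. The 2 that rose were the mitochondrial enzymes for cysteine, Cars2, and for phenylalanine, Fars2. By size 1 of 39 was lower, Vars, where 3.0% of all genes were, and 0 were higher, where 5.34% were. In the cytosolic set 11 of 14 fell and 0 rose, with a median log2 difference of −0.20, and in the mitochondrial set 7 of 16 fell, with a median of −0.22, beside 0.06 over all measured genes.

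The mitochondrial enzymes were mostly at lower levels than the cytosolic ones. Rars2, for arginine, led at 32.7 ± 1.3, 39.5 ± 1.4, 30.2 ± 0.43 and 32.7 ± 0.01 FPKM, save at E15.5 where Lars2 and Yars2 were above it. Mars2, for methionine, was lowest at every stage, between 0.48 ± 0.06 and 1.04 ± 0.18 FPKM. Tars2, for threonine, was at 6.36 to 9.60 FPKM, and those for alanine (Aars2), cysteine (Cars2), isoleucine (Iars2), asparagine (Nars2) and tryptophan (Wars2) lay between 1.30 and 4.42 FPKM at all stages. Of the windows of Iars2 22.7% lie in other genes, nearly all in Rab3gap2 on the opposite strand. At E13.5 against E11.5 the mitochondrial set had a median log2 difference of 0.22, beside −0.03 over all measured genes. Of 16 tested 8 rose and 2 fell, where 31.8% and 37.2% of all genes did. On the same-total scaling 6 rose and 3 fell, where 27.5% and 44.8% of all genes did. The glutamate enzyme Ears2 rose from 3.41 ± 0.17 to 6.00 ± 0.33 FPKM (limma adjusted p = 1.9e-04) and the proline enzyme Pars2 from 1.75 ± 0.18 to 3.31 ± 0.11 FPKM (limma adjusted p = 1.7e-04). The serine enzyme Sars2 fell from 14.7 ± 0.34 to 11 ± 0.16 FPKM (limma adjusted p = 1.5e-04).

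From E13.5 to E15.5 4 of 16 mitochondrial enzymes rose and 5 fell, shares near the 29.3% and 27.3% of all genes. From E15.5 to E18.5 3 rose and 6 fell, where 38.1% and 31.0% of all genes did. On the same-total scaling the counts were 1 and 13 (8.78% and 61.3% of all genes), then 5 and 5 (44.6% and 23.4%). The histidine enzyme Hars2 was lowest at E15.5, going from 11.3 ± 0.79 to 6.97 ± 0.56 FPKM and then to 9.26 ± 0.03 (limma adjusted p = 5.7e-04 for the first step and 0.0042 for the second). Hars2 and Hars overlap on opposite strands, with 3.37% and 5.95% of their windows shared. Fars2 was lowest at E11.5 and highest at E18.5, at 4.44 ± 0.29, 5.94 ± 0.12, 7.17 ± 0.04 and 7.86 ± 0.41 FPKM.

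Lars2, the mitochondrial leucine enzyme on chromosome 9 (123366927 to 123462666, plus strand, mm10), stood apart from all other members. It was at 4.47 ± 0.13, 14.1 ± 1.1, 67.2 ± 1.6 and 14.9 ± 0.55 FPKM, a 15.02-fold span. E15.5 lay far above every other stage in both libraries, and E13.5 and E18.5 were close. It rose from E11.5 to E13.5 (1.46 ± 0.06 SE, limma adjusted p = 2.2e-06) and again to E15.5 (2.18 ± 0.06 SE, limma adjusted p = 2.6e-06), then fell by 2.10 to E18.5 (SE 0.06, limma adjusted p = 1.0e-06). Of 4 annotated ribosomal RNA genes 3 were also lowest at E11.5 and highest at E15.5. The mitochondrial mt-Rnr2 was at 272, 455, 2305 and 825 FPKM, mt-Rnr1 at 17.5, 25.6, 77.1 and 40.4, and the nuclear rRNA gene CT010467.1 at 23.7, 65.3, 648 and 96.1. Gm23114, another annotated rRNA gene, was at 12.8, 9.22, 10.9 and 7.01 FPKM and was not ordered in that way. Of the 50-base windows of Lars2 transcripts 0.20% lie in other annotated transcripts, and 0 in those rRNA genes. That search took exact matches to annotated transcripts alone, so it cannot say whether ribosomal RNA reads were counted in Lars2. The part of ribosomal RNA in the Lars2 values was not tested. Without Lars2 the summed mitochondrial level was 126, 140, 131 and 111 FPKM, and with it 130, 154, 198 and 126.

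**Figure D3:**
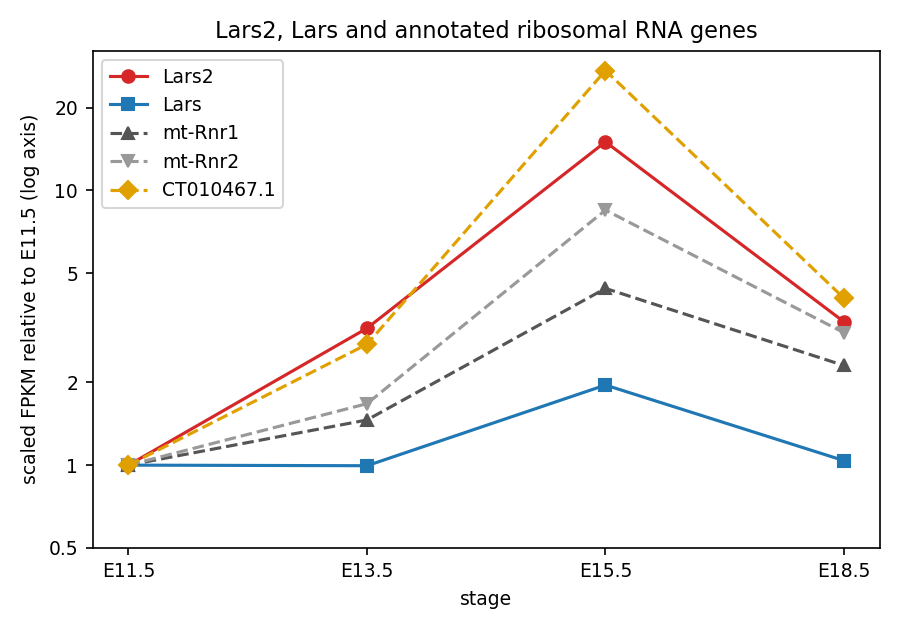
Scaled FPKM of Lars2, Lars and 3 annotated ribosomal RNA genes at 4 stages, each divided by its own E11.5 value, on a log axis. All are highest at E15.5. Lars2 goes from 4.47 to 67.2 FPKM and CT010467.1 from 23.7 to 648, while Lars goes from 18.4 to 36.1.

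Paired by amino acid, the cytosolic enzyme had the higher FPKM in 17 of 18 pairs at E11.5 and E13.5 and in 16 at both later stages. The median ratio of cytosolic to mitochondrial FPKM was 5.57, 3.85, 3.92 and 3.08 from the earliest stage to the latest. Such ratios lie within a sample and do not depend on the scaling, but they depend on the annotated exon length of each gene. They ran from 25.9 to 56.1 for methionine and from 17.3 to 25.98 for tryptophan, but only from 0.97 to 1.37 for arginine. The tyrosine pair was reversed in FPKM at all 4 stages, with annotated exon lengths of 5943 bases for Yars and 3149 for Yars2. Yars2 was at 24.0 ± 1.1, 28.2 ± 0.42, 34.4 ± 0.82 and 17.5 ± 0.73 FPKM, and Yars at 22.2 ± 0.58, 15.9 ± 0.33, 14.0 ± 0.61 and 13.8 ± 0.66. At the later 3 stages the libraries of Yars2 lay above those of Yars in FPKM, with ratios of 0.56, 0.41 and 0.79. At E11.5 the pair was close to level at 0.92. In reads, not divided by length, Yars was above Yars2 in each library at E11.5, E13.5 and E18.5 and below it at E15.5. The reads were 2459 and 2315 against 1428 and 1311 at E11.5, and 1104 and 899 against 1419 and 1188 at E15.5. The part of exon length in the reversal was not tested. On the main scaling Yars fell at the first 2 steps while Yars2 rose at both (limma adjusted p = 2.1e-04 and 0.024 for Yars, 0.0045 and 0.0025 for Yars2). On the same-total scaling Yars2 did not rise at the second step. At the first step 6 of 16 mitochondrial enzymes rose on that scaling, against 8 on the main one, and Yars2 is not given singly. From E15.5 to E18.5 Yars2 fell by 0.93 on the main scaling (SE 0.05, limma adjusted p = 7.6e-06). The leucine pair crossed over, from a ratio of 4.12 at E11.5 to 0.54 at E15.5, and stood at 1.29 by E18.5. The ratio for serine was highest at E18.5, having gone from 2.36 to 5.89.

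**Figure D4:**
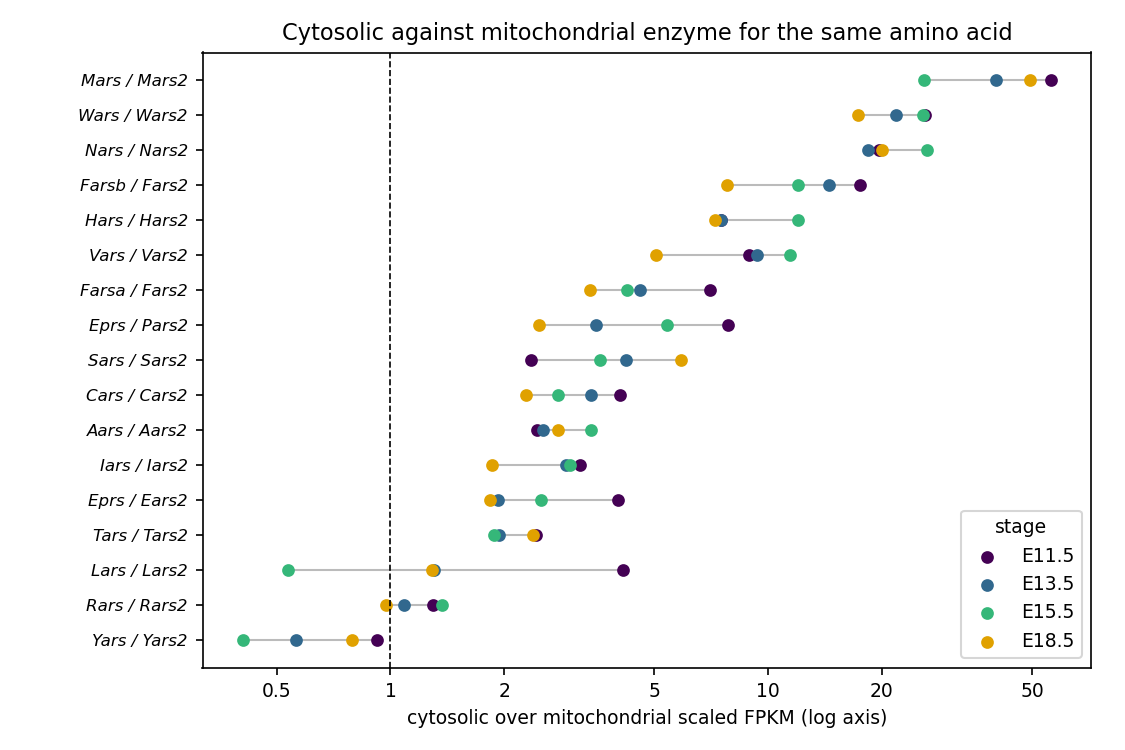
Ratio of the cytosolic to the mitochondrial synthetase for the same amino acid, in scaled FPKM on a log axis, with a point per stage and a dashed line at 1. Eprs and Fars2 appear in 2 rows each. Yars over Yars2 is below 1 at all 4 stages, and Lars over Lars2 crosses from 4.12 to 0.54.

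The synthetases were set beside the rest of the translation machinery. Cytosolic initiation, elongation and termination factors, 31 measured, had median log2 differences of 0.21, 0.44 and −0.84 at the 3 consecutive steps, where cytosolic synthetases had −0.08, 0.02 and −0.27. From E13.5 to E15.5 17 of 22 tested factors rose and 1 fell, where 29.3% and 27.3% of all genes did, but on the same-total scaling 2 rose and 15 fell, where 8.78% and 61.3% did. From E15.5 to E18.5 all 31 were below 0, 21 of 22 tested fell, 0 rose, and 9 of the 31 were lower by size, where 31.0% of all genes fell and 5.55% were lower by size. On the same-total scaling 19 fell and 1 rose, where 23.4% and 44.6% of all genes did. Eef1a1, which delivers charged tRNA to the ribosome, was at 898, 1420, 2521 and 1328 FPKM. Eif5a, a translation factor that helps ribosomes past difficult peptide bonds, was at 681, 1221, 1655 and 649 FPKM. Pabpc1, the poly(A)-binding protein, rose from 27.6 to 82.6 FPKM at E15.5 (limma adjusted p = 3.0e-06) and was at 26.9 at E18.5. The 28 mitochondrial tRNA and translation factors measured had a median log2 difference of −0.05 from E13.5 to E15.5. Of these 0 were past the size rule at that step, where 3.64% of all genes were higher and 1.48% lower. Pus1, a pseudouridine synthase at 11.4, 24.3, 30.5 and 12.6 FPKM, passed it at the steps before and after. Tfam, which packages and transcribes mitochondrial DNA, passed it only from E13.5 to E18.5, at 18.9, 26.7, 22.9 and 12.5 FPKM. Among 14 relatives in tRNA charging and editing 0 were past the size rule in any comparison. Of all genes 1.48% to 6.29% were past it in each direction of a comparison. Yrdc and Dtd1, a tRNA-modifying enzyme and a D-aminoacyl-tRNA deacylase, were at most 44.5 and 39.4 FPKM.

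Several cytosolic synthetases are known targets of ATF4, the transcription factor made when the kinases of eIF2alpha sense amino acid or endoplasmic reticulum stress. Several other genes of the ATF4 program had larger differences than the synthetases. Asparagine synthetase Asns, an amidotransferase that makes the amino acid and charges no tRNA, was at 31.9, 91.4, 287 and 97.1 FPKM and rose to E13.5 and to E15.5 (log2 1.49 and 1.64, limma adjusted p = 4.4e-07 and 1.9e-06), then fell by 1.55 to E18.5 (limma adjusted p = 8.2e-07). Nupr1, a stress-induced chromatin protein, was at 0.43, 54.9, 763 and 187 FPKM with no test. Phgdh, the first enzyme of serine synthesis, was at 130, 445, 685 and 150 FPKM, and the amino acid transporter Slc7a5 rose from 3.42 to 20.1 FPKM at E13.5 (limma adjusted p = 3.2e-07). From E13.5 to E15.5 20 of 27 tested genes of the program rose and 3 fell, where 29.3% and 27.3% of all genes did. By size 7 of 30 measured were higher and 0 lower, where 3.64% and 1.48% of all genes were. On the same-total scaling 12 rose and 7 fell. In the same comparison 3 of 14 cytosolic synthetases rose and 3 fell, 0 of 18 passed the size rule, and on the same-total scaling 0 rose and 14 fell. Trib3, a pseudokinase of the stress response, was ordered otherwise, at 3.81, 0.88, 0.81 and 7.28 FPKM. Atf4 itself was at 138, 83.3, 127 and 102 FPKM, highest at E11.5. Of the eIF2alpha kinases, Eif2ak3 (PERK) rose from 1.34 to 4.38 FPKM at E15.5 (limma adjusted p = 1.2e-04) and the uncharged-tRNA sensor Eif2ak4 (GCN2) was at 1.24 to 1.77 FPKM at all stages.

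**Figure D5:**
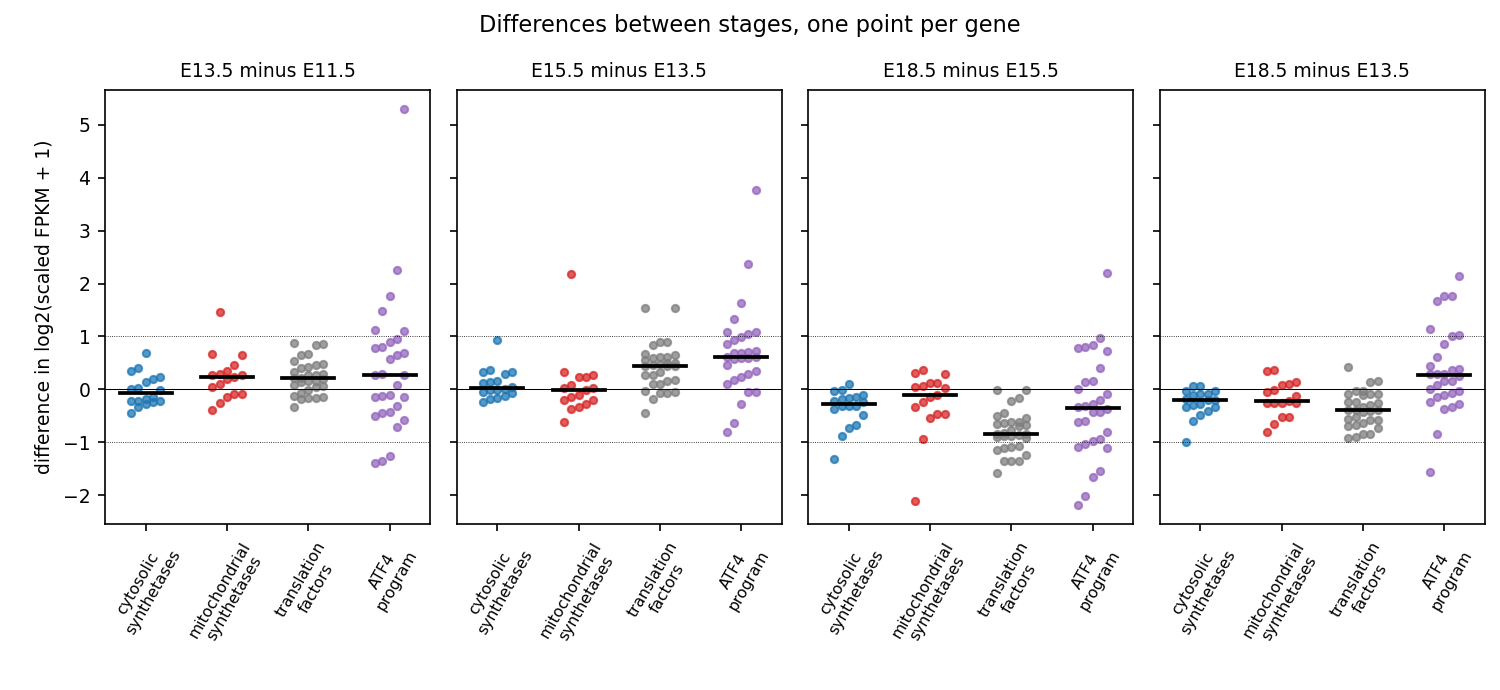
Difference in log2(scaled FPKM + 1) for each of 4 comparisons, with a point per gene, black bars for medians and dotted lines at 2-fold. Apart from Lars2 and Vars the synthetases lie within the 2-fold lines, points of the ATF4 program lie beyond them in every panel, and all 31 translation factors lie below 0 at E18.5 minus E15.5.

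Promoters were searched for the letters of the C/EBP-ATF response element through which ATF4 acts, TGATGCAA on either strand. RefSeq promoters (250 bases before to 50 after the start, GRCm38.p6) were found for 29 of the 39 members, and 4 of the 29 held the element, Aars, Iars, Tars and Yars, against 1.03% of 27025 genes with a promoter (0.895% of 32851 promoters). These 4 are shown so that the element can be set beside their levels. It is in capitals, in the orientation of the gene, within a stretch of 120 bases that lies before the start site in Aars and Tars, and within 30 bases in Iars and Yars, where it lies after the start.
Aars, chr8:111033674-111033793, plus strand: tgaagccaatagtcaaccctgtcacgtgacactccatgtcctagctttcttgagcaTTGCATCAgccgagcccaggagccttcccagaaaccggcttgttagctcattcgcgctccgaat
Tars, chr15:11399659-11399778, minus strand: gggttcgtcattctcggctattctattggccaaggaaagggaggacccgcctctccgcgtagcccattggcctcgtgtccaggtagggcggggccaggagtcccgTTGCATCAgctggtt
Iars, chr13:49682126-49682155, plus strand: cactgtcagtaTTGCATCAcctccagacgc
Yars, chr4:129189895-129189924, plus strand: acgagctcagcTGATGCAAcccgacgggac
The element starts 112 bases before the start site in Aars and 15 before it in Tars, and at base 8 and base 4 of the transcript in Iars and Yars. In Aars, Iars and Tars the promoter also holds the palindromic E-box CACGTG, found in 5 of the 29 members and 8.09% of genes. An ETS core, CCGGAAG, was in 11 of the 29 and 9.93% of genes, and the CCAAT box in 15 of the 29 and 41.1% of genes, both on either strand. A match is a description of letters and says nothing of binding. From E11.5 to E13.5 Aars, Tars and Yars fell by 0.24, 0.27 and 0.46 on the log2 scale and Iars rose by 0.23 (limma adjusted p = 0.013, 0.0010, 2.1e-04 and 0.0062). From E13.5 to E15.5 Tars and Yars fell by 0.25 and 0.17 (limma adjusted p = 0.0023 and 0.024), while Aars and Iars were not called (log2 differences of 0.04 and 0.13). From E15.5 to E18.5 Iars fell by 0.74 and Aars by 0.23 (limma adjusted p = 3.0e-05 and 0.015), while Tars and Yars were not called (log2 differences of −0.03 and −0.02). Of the 4, Iars alone was on the same side of 0 as Asns at all 3 steps on the main scaling. On the same-total scaling Iars fell from E13.5 to E15.5, as did 14 of 14 tested cytosolic enzymes. From E11.5 to E13.5 3 of the 14 rose on that scaling, against 6 on the main one, and Iars is not given singly. Aars was at 10.3 ± 0.50, 8.55 ± 0.11, 8.79 ± 0.31 and 7.33 ± 0.60 FPKM, and 13.8% of its windows lie in other genes, nearly all in Exosc6 on the same strand. Tars was at 22.7 ± 0.66, 18.6 ± 0.19, 15.54 ± 0.61 and 15.2 ± 0.11 FPKM. Of the windows of Iars 7.15% are shared, mainly with a pseudogene.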

How the data were processed

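Per the file headers, the authors deposited an average FPKM for every Ensembl gene ID. Reads were processed with HISAT2 2.0.5 on mm10, per the submitters' processing notes, and no source used here names the counting tool. Symbols, exon lengths and coordinates came from GENCODE M21. Scaling used median-of-ratios factors from 9883 genes that reached 1 FPKM at all 4 stages. Each mean was split into whole reads of 2 libraries where a single pair gave it within 1 unit of its last printed place, which held for 96.2% to 96.3% of genes attempted. On simulated means, built with the same formula, 0 splits were wrong. Reads are estimates from the recovered denominators, and no label states the 2 libraries. Among high genes only pairs with libraries within 1.5-fold were considered. The log2(scaled FPKM + 1) values of 13484 genes in 8 libraries were compared by limma 3.58.1 in R 4.3.3, using a mean-variance trend. Its p-values were adjusted by Benjamini-Hochberg at 0.05 over all genes. In a simulation of the first comparison (E11.5 to E13.5, 13484 genes), 48 of 50 genes with a 2-fold rise were called, as were 45 of 50 with a 1.5-fold rise and 13 of the 13284 left unchanged. It added normal noise to the log2 E13.5 means, with the SDs that limma had estimated, and changed only genes at 5 FPKM or more. Because it takes the model of the test as true, it does not show how the test performs on the real libraries.

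All members are named except 1, which is counted in the groups and not reported here. Of each other list, the genes named are among the 4 with the largest difference past the size rule per comparison and the 2 at the highest level. Atf4, Eef1e1, Eif2ak1, Eif2ak3, Eif2ak4 and the rRNA genes were named outside that rule after their values were seen. The members and lists were chosen with earlier results of these data known. Alternatives tried are in the closing section.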

Additional observations from a re-analysis of the deposited data

How the results depend on the processing

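No paired analysis was possible because the labels give 1 sample per stage and the recovered libraries carry no number. With every sample set to the same total FPKM the median of all genes moved to −0.14, −0.41, 0.15 and −0.24 (E13.5 against E11.5, E15.5 against E13.5, E18.5 against E15.5, E18.5 against E13.5, an order kept below). On that scaling the cytosolic median was −0.21, −0.57, −0.11 and −0.63, and the mitochondrial median was 0.13, −0.55, 0.04 and −0.47. By size 2 members were lower at E15.5 against E13.5 and 4 at E18.5 against E13.5, and by limma 1 rose and 30 fell at E15.5 against E13.5, 8 rose and 13 fell at E18.5 against E15.5, and 0 rose at E18.5 against E13.5. With the 1.5-fold rule 4, 2, 0 and 0 members were higher and 0, 2, 8 and 4 lower. With limma and at least 1.5-fold 4, 1, 0 and 0 rose and 0, 1, 7 and 4 fell. Shares of all genes are not given for the 1.5-fold settings or for size on the same total. Those counts therefore say nothing relative to other genes. The mitochondrial median at E13.5 against E11.5 was 0.27 with a pseudocount of 0.1, and at E18.5 against E15.5 it was −0.039 without Lars2, an alternative chosen after seeing the data, or with members at 1 FPKM or more in every stage. Leaving out each library in turn left 14 to 15, 8 to 11, 2 to 4 and 2 members rising and 6 to 9, 5 to 7, 15 to 19 and 16 to 21 falling, with a lone library assumed to vary like the others. The 17 single-member differences that were recomputed were those called and at least 1.5-fold in the main fit, so the largest ones. Of their 170 refits 0 reversed direction, and smaller differences named above are not covered by this. Genes with no split had no test, and low depth limits members such as Mars2, which had 64 and 76 reads in the E18.5 libraries.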
